A study of Arabidopsis thaliana with 15 samples.

Results

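The genes described here are 8 early stress genes of *Arabidopsis thaliana*: the cold factors *CBF1* (AT4G25490), *CBF2* (AT4G25470) and *CBF3* (AT4G25480), the drought and heat factor *DREB2A* (AT5G05410), the zinc finger genes *ZAT10* (AT1G27730) and *ZAT12* (AT5G59820), and the touch genes *CML24* (AT5G37770, also called *TCH2*) and *TCH3* (AT2G41100). They were picked by gene identifier from a table of 32833 genes because handling of plants at harvest can move them. All 8 were in the table and all 8 were among the 19663 genes that passed the filter on low counts. *CBF1* had only 7, 15 and 14 counts in the libraries of the CRISPR/Cas line and passed through its counts in the other lines.

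Messenger RNA of entire rosettes, cut at day 28 from plants on soil, was sequenced, in 5 lines with 3 libraries each. Every line carries a GFP reporter with a chloroplast transit peptide behind the bundle-specific GLDPA promoter of *Flaveria trinervia* in Col-0, and this reporter plant without a further change is the reference line. The activation-tagged line differs from it in that the *Flaveria trinervia* GLDT promoter, active around the leaf veins, was inserted in the coding region of *NAC052*, which encodes a NAC transcription factor (AT3G10490). A GLDT::NAC052 line and a separate GLDT::5'truncatedNAC052 line carry the whole or the 5'-truncated *NAC052* coding sequence behind that promoter as a randomly inserted transgene, and the CRISPR/Cas line has an inserted nucleotide in *NAC052* that shifts its reading frame. Each genotype is a single line, so an effect of the allele and of the particular line cannot be told apart, and the GLDT promoter drives expression in a few cells of a tissue that was sampled whole. The hour of harvest and the order in which rosettes were cut are not given in the sources used here.

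CBF proteins bind the DRE motif in promoters of cold-induced genes such as *RD29A*, and their own genes are switched on within minutes of cooling, under gating by the circadian clock. DREB2A binds the same motif in drought and heat, ZAT10 and ZAT12 are C2H2 zinc finger factors induced by many stresses including light, oxidation and wounding, and CML24 and TCH3 are calmodulin-like calcium sensors whose transcripts rise after a plant is touched. In a whole rosette, fewer cells expressing a gene and less RNA per cell cannot be told apart.

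The *CBF* genes stand in tandem on the minus strand of chromosome 4 (RefSeq annotation of TAIR10.1), *CBF2* at chr4:13015250-13016235, *CBF3* at chr4:13018010-13019400 and *CBF1* at chr4:13021780-13022996. Their coding sequences share 87.3% to 87.5% of aligned bases, so reads could be confused between them. The longest identical stretch was 68 bases between *CBF1* and *CBF2* and 33 bases in the other pairs, and 0 of 493 to 502 windows of the 150-base read length occurred in 2 of the genes. *ZAT10* lies on the minus strand of chromosome 1 at chr1:9648021-9649323, *TCH3* on the plus strand of chromosome 2 at chr2:17137037-17139700, and on chromosome 5 *DREB2A* (chr5:1602205-1604112) and *ZAT12* (chr5:24102814-24103794) lie on the plus strand and *CML24* (chr5:14997514-14999619) on the minus strand.

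Short promoter motifs were searched on both strands of the 250 bases before each annotated start. A shortened form of the evening element, a sequence bound by clock factors such as CCA1, was searched as the letters AAATATCT. These letters were in 4.8% of 27443 promoters and in those of all 3 *CBF* genes and of *ZAT12*. The full element has a further A in front, which only the *ZAT12* window holds. The windows are shown because the *CBF* genes are known for clock gating and several clock genes changed in these lines. Each is written 5′ to 3′ on the strand of its gene, with the searched letters in capitals. In *CBF1* they read on the opposite strand.
*CBF1*, 81 bases before the start, chr4:13023060-13023087: catttcacagAGATATTTatgtctatta
*CBF2*, 51 bases before the start, chr4:13016269-13016296: acaaatatccAAATATCTtccggccaat
*CBF3*, 199 bases before the start, chr4:13019582-13019609: tttgttgcacAAATATCTactctcccaa
*ZAT12*, 152 bases before the start, chr5:24102652-24102679: tatccaaataAAATATCTttaaaaagaa

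The core CGCG, read by the calmodulin-binding CAMTA factors, was in 2783 of the 27443 promoters and in those of *CBF2*, *ZAT12* and *CML24*. Its windows are shown because CAMTA3 is known as an activator of *CBF2*. The capitals mark the core, which lies 74 bases before the start of *CBF2*, 44 bases before that of *ZAT12* and at 82 and 63 bases before that of *CML24*.
*CBF2*, chr4:13016294-13016321, minus strand: agacagaaactcCGCGttcgaccccaca
*ZAT12*, chr5:24102758-24102785, plus strand: tctcttaagctaCGCGgtgtcgcaaatc
*CML24*, chr5:14999686-14999713, minus strand: acgcaatctcaaCGCGttttaattaaaa
*CML24*, chr5:14999667-14999694, minus strand: taattaaaaaaaCGCGttattacgtcac
The DRE core CCGAC, the site bound by the CBF and DREB2 proteins themselves, was in 12.0% of all promoters and, among the 8 genes, in that of *ZAT10*, 34 bases before its start (chr1:9649342-9649369, minus strand, core in capitals): aaagtcttatagCCGACctcttcttcat
These matches are letters in a window and not measured binding sites.

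Library totals ran from 28074380 to 38579309 counts. Levels are given as CPM, counts scaled to a common library size after correction of library sizes by the trimmed mean of M values (TMM), differences as log2 fold changes with standard errors (SE, n = 3 libraries a line), and a gene was called at an adjusted p under 0.05 from edgeR's quasi-likelihood test over all 19663 genes. *NAC052* mRNA was at 19.5 to 20.6 CPM in the reference line and at 20.1 to 22.6 CPM in the CRISPR/Cas line, whose frameshift need not lower its mRNA. It was at 61.7 to 80.01 CPM in the activation-tagged line. In the GLDT::NAC052 libraries it was at 280, 27.2 and 165 CPM, and in the GLDT::5'truncatedNAC052 libraries at 25.01, 66.0 and 52.5 CPM, so that replicate 2 of the former and replicate 1 of the latter stood near the reference level. The 5 leaf markers summed to 42190 to 68830 CPM and were highest in the activation-tagged line (62000 to 68830 CPM, against 54890 to 59180 CPM in the reference line). Of 3 root markers, *RHD6* had 0 counts in all 15 libraries and the sum was at most 0.236 CPM, and 5 flower markers summed to 0.609 to 2.05 CPM, with *AP1* at 0 in 13 libraries. The reference and activation-tagged libraries (6) ran on lane 1 and the other 9 on lane 8, as the table's column headers name them, so for 3 of the 4 comparisons with the reference line the lane and the line cannot be told apart. The lines on lane 8 were therefore also compared with each other.

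Among all genes tested, 58.1% were called in a test for any difference among the 5 lines, and 7 of the 8 early stress genes were among them. *TCH3* was not (adjusted p = 0.362). The adjusted p of the others ran from 0.000108 (*CBF3*) to 0.019 (*DREB2A*). Against the reference line, 23.8% of all genes were called in the CRISPR/Cas line (11.0% higher, 12.8% lower) and 5 of the 8 early stress genes, 2 higher and 3 lower. In the GLDT::NAC052 line 34.3% of all genes were called (17.0% higher, 17.3% lower) and 3 of the 8 (37.5%), all higher, a share close to that of all genes. In the activation-tagged line 3.65% were called (1.9% higher, 1.74% lower) and in the GLDT::5'truncatedNAC052 line 5.83% (2.8% higher, 3.03% lower), with 0 of the 8 in both by edgeR and also by DESeq2 and limma voom. At an unadjusted p under 0.05 the counts of those 2 lines were 1 (*CBF1*) and 2 (*CBF3* and *DREB2A*). With library totals in place of TMM the share of called genes that were higher moved as follows: the CRISPR/Cas line went from 46.1% to 76.7%, GLDT::NAC052 from 49.6% to 64.7%, the activation-tagged line from 52.2% to 27.7% and GLDT::5'truncatedNAC052 from 48.0% to 68.4%. The number of early stress genes called was then 5 (CRISPR/Cas), 4 (GLDT::NAC052), 0 (activation-tagged) and 0 (GLDT::5'truncatedNAC052), and *CBF3* was the added gene (log2 fold change 0.87, edgeR adjusted p = 0.0467). These 4 comparisons share the 3 reference libraries.

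**Figure D1:**
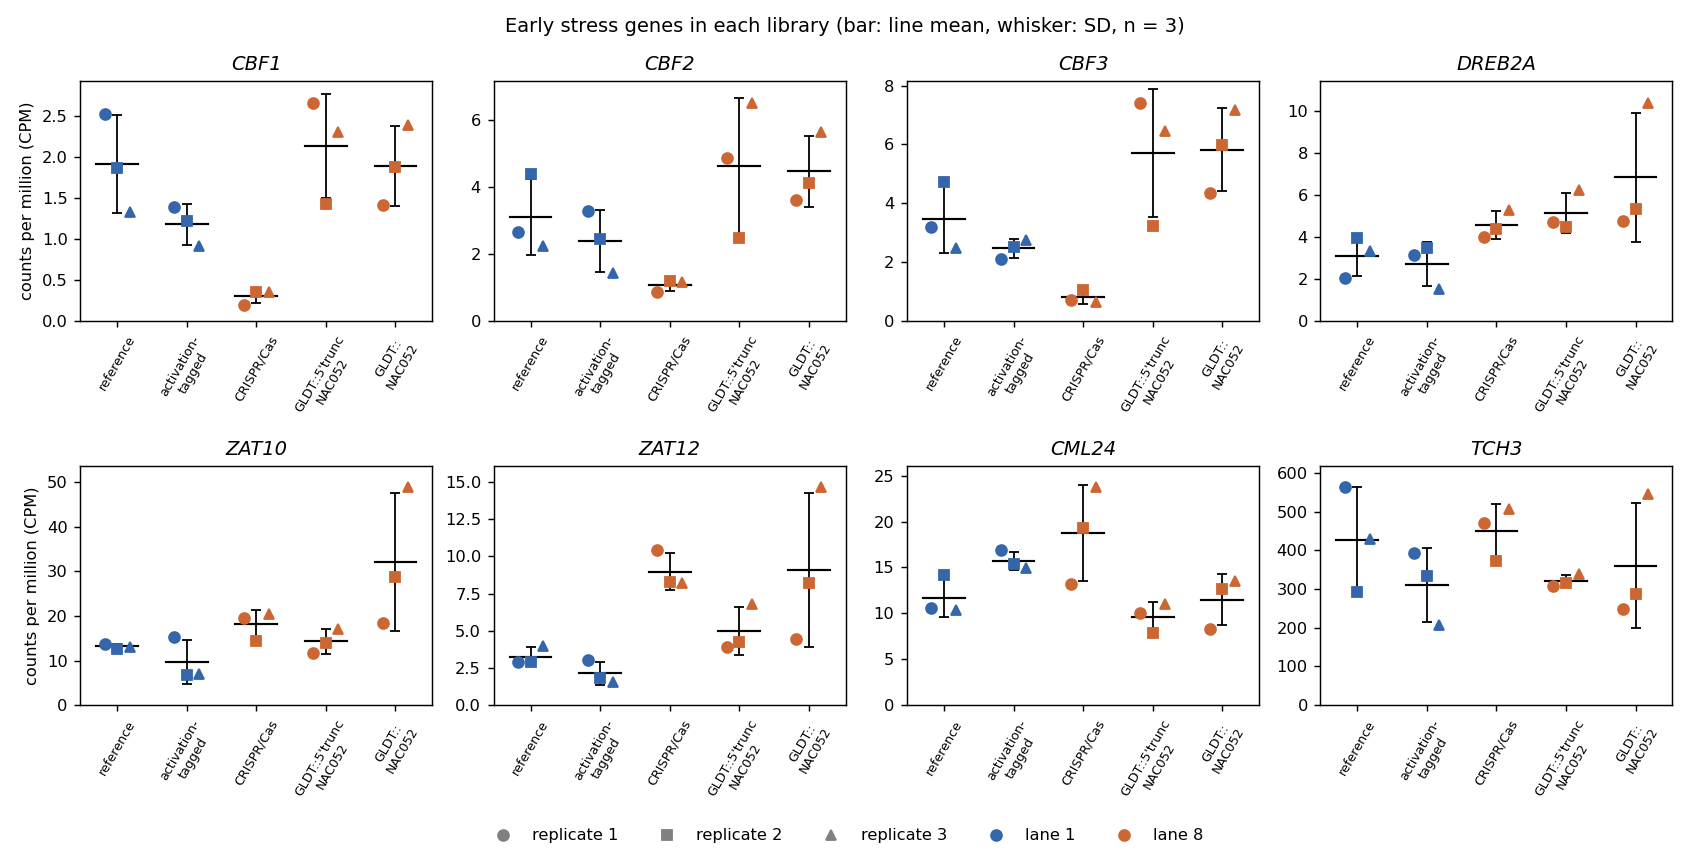
Level of each early stress gene in every library, in CPM on a linear axis from 0, with a panel per gene. Symbols are the 3 replicates of a line, colours the sequencing lane, the bar the line mean and the whisker the SD. The *CBF* genes sat lowest in the CRISPR/Cas line (*CBF1* at 0.197 to 0.352 CPM), and *ZAT10* was highest in replicate 3 of the GLDT::NAC052 line at 48.9 CPM.

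All 3 *CBF* genes were lower in the CRISPR/Cas line than in every other library, by 6.25-fold (*CBF1*), 2.89-fold (*CBF2*) and 4.36-fold (*CBF3*) against the reference line. *CBF1* was at 2.52, 1.87 and 1.33 CPM in replicates 1, 2 and 3 of the reference line and at 0.197, 0.352 and 0.352 CPM in the CRISPR/Cas line. It was at 1.39, 1.22 and 0.910 CPM in the activation-tagged line, at 2.66, 1.42 and 2.31 CPM in the GLDT::5'truncatedNAC052 line and at 1.41, 1.88 and 2.38 CPM in the GLDT::NAC052 line. Libraries of the CRISPR/Cas line lay below all 12 others, which overlapped among themselves except for the activation-tagged line and the GLDT lines, whose ranges did not meet. The log2 fold change of the CRISPR/Cas line was -2.64 (SE 0.36, edgeR adjusted p = 0.000357). The activation-tagged line stood at -0.71 (SE 0.32, adjusted p = 0.259), and the GLDT lines at 0.16 (SE 0.31) for the truncated and -0.02 (SE 0.31) for the whole coding sequence, the last sign turning with library totals, where it was 0.10.

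*CBF2*, known in *Arabidopsis* as a restraint on its neighbours *CBF1* and *CBF3* as well as a cold factor, was at 2.66, 4.39 and 2.24 CPM in the reference line and at 0.870, 1.18 and 1.16 CPM in the CRISPR/Cas line. Its levels were 3.29, 2.44 and 1.44 CPM in the activation-tagged line, 4.86, 2.48 and 6.52 CPM in the GLDT::5'truncatedNAC052 line and 3.62, 4.12 and 5.66 CPM in the GLDT::NAC052 line. Again the CRISPR/Cas libraries were below the rest, and the reference and GLDT lines overlapped. The log2 fold change was -1.53 (SE 0.39, edgeR adjusted p = 0.0124). Without reference replicate 2, which had the highest reference value, it was no longer called (adjusted p = 0.0611).

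*CBF3*, the third of the tandem genes, was at 3.19, 4.73 and 2.47 CPM in the reference line and at 0.702, 1.03 and 0.628 CPM in the CRISPR/Cas line. It was at 2.09, 2.52 and 2.76 CPM in the activation-tagged line, at 7.41, 3.24 and 6.44 CPM in the GLDT::5'truncatedNAC052 line and at 4.35, 5.97 and 7.15 CPM in the GLDT::NAC052 line. Those of the CRISPR/Cas line had no overlap with any other line, and both GLDT lines reached above the highest reference library while overlapping it. The CRISPR/Cas line fell by 2.12 on the log2 scale (SE 0.35, edgeR adjusted p = 0.000984). The GLDT lines gave 0.72 (SE 0.31, adjusted p = 0.192) and 0.75 (SE 0.31, adjusted p = 0.075), the latter passing the threshold without reference replicate 2 (adjusted p = 0.0362) or without GLDT::NAC052 replicate 1 (adjusted p = 0.0467).

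The decrease of the *CBF* genes held among lines of the same lane. Against the GLDT::5'truncatedNAC052 line, where 28.6% of all genes were called (13.2% higher, 15.4% lower), 4 of the 8 genes were called. *CBF1* (log2 fold change -2.80, SE 0.36), *CBF2* (-2.11, SE 0.39) and *CBF3* (-2.84, SE 0.35) were lower, with edgeR adjusted p of 0.000123, 0.00129 and 8.43e-05. Against the GLDT::NAC052 line, where 41.4% of genes were called (20.5% higher, 20.9% lower), the same 3 genes were lower by -2.63 (SE 0.36), -2.06 (SE 0.38) and -2.87 (SE 0.35), with adjusted p of 7.36e-05, 0.000793 and 2.54e-05. Both sets share the CRISPR/Cas libraries. Between the GLDT lines themselves none of the 3 was called, with log2 fold changes (whole minus truncated) of -0.17 (95% confidence interval -0.84 to 0.49), -0.05 (-0.81 to 0.71) and 0.03 (-0.61 to 0.68).

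Per kilobase of exon, a scale on which genes can be compared, the mean level of the reference line was 1.57 CPM for *CBF1*, 2.49 CPM for *CBF3* and 3.14 CPM for *CBF2*. All were far below *TCH3* at 168 CPM per kilobase and *ZAT10* at 10.14 CPM per kilobase. In the CRISPR/Cas line the 3 levels were 0.247, 0.567 and 1.08 CPM per kilobase, with *CBF1* lowest in both lines.

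*DREB2A*, whose protein is known to be unstable in plants without stress, was at 2.02, 3.92 and 3.31 CPM in the reference line and at 4.75, 5.35 and 10.4 CPM in the GLDT::NAC052 line. It was at 3.13, 3.46 and 1.53 CPM in the activation-tagged line, at 4.02, 4.39 and 5.28 CPM in the CRISPR/Cas line and at 4.70, 4.46 and 6.25 CPM in the GLDT::5'truncatedNAC052 line. All 9 libraries of lane 8 lay above all 6 of lane 1, and lane and line cannot be told apart here. *DREB2A* rose 2.22-fold in the GLDT::NAC052 line (log2 fold change 1.15, SE 0.34, edgeR adjusted p = 0.018), a call lost without reference replicate 1 or GLDT::NAC052 replicate 3 (adjusted p up to 0.105). In the CRISPR/Cas line it stood at 0.57 (SE 0.34, adjusted p = 0.241) and in the GLDT::5'truncatedNAC052 line at 0.74 (SE 0.34, adjusted p = 0.225). None of the comparisons within lane 8 called it.

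*ZAT10*, a zinc finger repressor whose transcript is known to rise in salt, cold and strong light, was at 13.8, 12.7 and 13.1 CPM in the reference line and at 18.4, 28.8 and 48.9 CPM in the GLDT::NAC052 line. It was at 15.3, 6.76 and 6.99 CPM in the activation-tagged line, at 19.6, 14.4 and 20.4 CPM in the CRISPR/Cas line and at 11.7, 14.03 and 17.2 CPM in the GLDT::5'truncatedNAC052 line. The GLDT::NAC052 libraries were spread widely, yet all 3 lay above every reference library. *ZAT10* rose 2.42-fold in that line (log2 fold change 1.28, SE 0.33, edgeR adjusted p = 0.00969). Without its replicate 3 the increase was 0.85 on the log2 scale and was no longer called (adjusted p = 0.057).

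Whole against truncated *NAC052* behind the same promoter, on the same lane, called 8.54% of all genes (4.77% higher, 3.78% lower). *ZAT10* was the only early stress gene among them, higher with the whole coding sequence by 1.16 on the log2 scale (SE 0.33, edgeR adjusted p = 0.0457). This call was lost without GLDT::NAC052 replicate 2 or 3, without GLDT::5'truncatedNAC052 replicate 1 or 2, with library totals and in a fit of these 6 libraries alone, where the adjusted p reached 0.219 at most. In that smaller fit the number of all genes called was 15 in place of 1680.

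*ZAT12*, known as a broad early stress factor that dampens the *CBF* genes when overproduced, rose in the CRISPR/Cas line and in the GLDT::NAC052 line. It was at 2.88, 2.93 and 3.99 CPM in the reference line, at 10.4, 8.29 and 8.22 CPM in the CRISPR/Cas line and at 4.43, 8.20 and 14.6 CPM in the GLDT::NAC052 line. The activation-tagged line held 3.01, 1.85 and 1.56 CPM and the GLDT::5'truncatedNAC052 line 3.90, 4.21 and 6.82 CPM. The CRISPR/Cas libraries were close together and all above the reference line. The GLDT::NAC052 libraries also cleared the reference line but spanned a wider range, and the truncated line overlapped it. Apart from GLDT::5'truncatedNAC052 replicate 1, every library of lane 8 lay above every library of lane 1.

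The log2 fold change of *ZAT12* was 1.46 (SE 0.37, edgeR adjusted p = 0.0121) in the CRISPR/Cas line, 2.75-fold, and 1.48 (SE 0.37, adjusted p = 0.00728) in the GLDT::NAC052 line, 2.78-fold. These calls held under each of the 14 alternatives run, with adjusted p up to 0.0482 and 0.0419. None of the alternatives separates lane from line, which cannot be told apart in these comparisons with the reference line. The direct difference between the 2 lines was -0.02 (95% confidence interval -0.77 to 0.73). Against the GLDT::5'truncatedNAC052 line the CRISPR/Cas line stood at 0.85 (SE 0.36, adjusted p = 0.0903) and the GLDT::NAC052 line at 0.87 (SE 0.36, adjusted p = 0.146). Neither was called.

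*CML24* and *TCH3*, the touch genes, behaved differently from each other. *CML24* was at 10.6, 14.1 and 10.3 CPM in the reference line, at 16.9, 15.3 and 14.97 CPM in the activation-tagged line and at 13.3, 19.3 and 23.7 CPM in the CRISPR/Cas line. It was at 9.99, 7.87 and 11.1 CPM in the GLDT::5'truncatedNAC052 line and at 8.33, 12.6 and 13.6 CPM in the GLDT::NAC052 line. At their lower end the CRISPR/Cas libraries overlapped the reference line, and the activation-tagged libraries lay above it. *CML24* rose 1.61-fold in the CRISPR/Cas line (log2 fold change 0.68, SE 0.22, edgeR adjusted p = 0.0353), and this call was lost without reference replicate 1 or 3 or CRISPR/Cas replicate 2 or 3 (adjusted p up to 0.161). The activation-tagged line stood at 0.43 (SE 0.22, adjusted p = 0.315). On lane 8 *CML24* was higher in the CRISPR/Cas line than in the GLDT::5'truncatedNAC052 line by 0.96 (SE 0.22, adjusted p = 0.00533), with no overlap, and than in the GLDT::NAC052 line by 0.71 (SE 0.22, adjusted p = 0.0182). The latter call was lost without CRISPR/Cas replicate 3, without GLDT::NAC052 replicate 1 and in a fit of those 6 libraries (adjusted p up to 0.0967).

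*TCH3* was the most abundant of the 8 genes. It was at 563, 292 and 428 CPM in the reference line, 392, 334 and 206 CPM in the activation-tagged line and 470, 373 and 508 CPM in the CRISPR/Cas line. The GLDT::5'truncatedNAC052 libraries held 308, 315 and 338 CPM and the GLDT::NAC052 libraries 249, 288 and 546 CPM. Every line overlapped the reference line, and activation-tagged replicate 3 and GLDT::NAC052 replicates 1 and 2 lay below all reference libraries. The log2 fold changes against the reference line ran from -0.46 (SE 0.30) in the activation-tagged line to 0.07 (SE 0.30) in the CRISPR/Cas line, and none of the 7 comparisons called it.

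**Figure D2:**
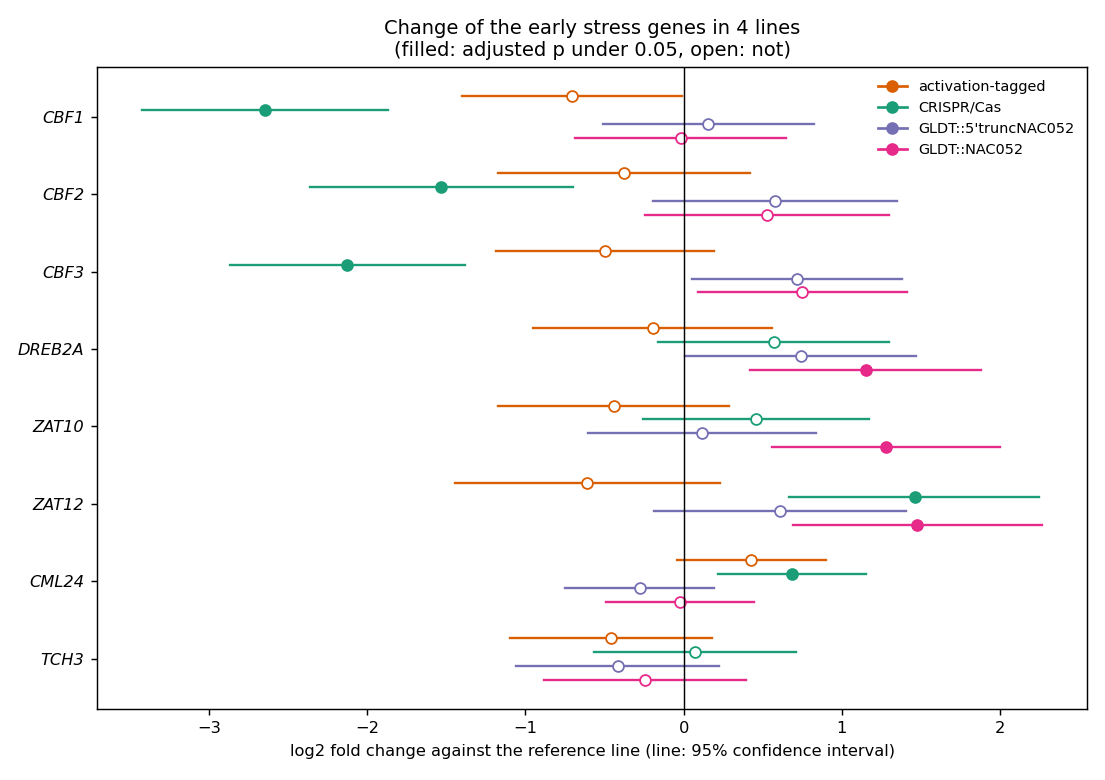
Log2 fold change of each early stress gene against the reference line (x axis) in 4 lines (colours), with 95% confidence intervals from edgeR. Filled points had an adjusted p under 0.05. The *CBF* genes of the CRISPR/Cas line stood at -2.64, -1.53 and -2.12, and *ZAT12* at 1.46 there and at 1.48 in GLDT::NAC052.

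The spread between the 3 libraries of a line was wide for these genes. The within-line SD of log2 CPM, pooled over lines, was 0.302 for *CML24*, 0.399 for *CBF1*, 0.420 for *TCH3*, 0.427 for *CBF3*, 0.467 for *ZAT10* and 0.469 for *DREB2A*, and it was largest for *CBF2* and *ZAT12* (up to 0.501). The median over all genes tested was 0.193 and the 90th percentile 0.566, so these genes fell between the 71.9th (*CML24*) and the 87.1th percentile (*ZAT12*). Lines differed in this. *ZAT10* had an SD of 0.059 in the reference line and 0.705 in the GLDT::NAC052 line, *ZAT12* 0.193 in the CRISPR/Cas line and 0.856 in the GLDT::NAC052 line, and *TCH3* 0.070 with the truncated and 0.603 with the whole coding sequence.

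**Figure D3:**
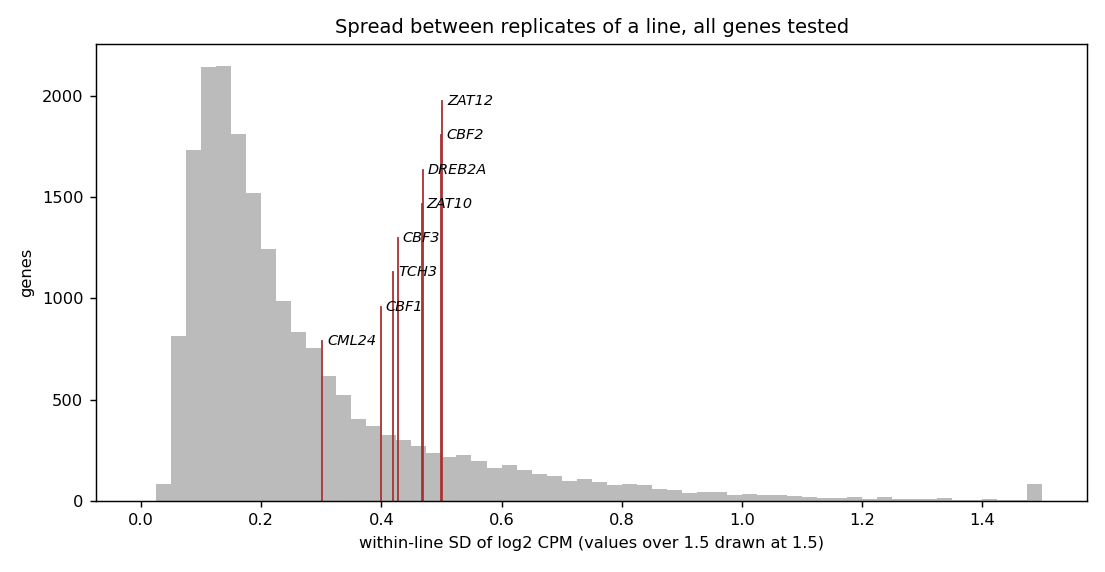
Within-line SD of log2 CPM (x axis) for all 19663 genes tested (bars count genes), with the early stress genes as vertical lines. All 8 lie right of the median of 0.193, from 0.302 (*CML24*) to 0.501 (*ZAT12*).

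Within several lines most of the 8 genes lay on the same side of the line mean in a library. The share of all genes above the line mean in the same libraries was not computed. The deviations of a gene sum to 0 over the libraries of a line, so counts within a line depend on each other. In the GLDT::NAC052 line replicate 3 was above the line mean in 8 of 8 genes (median deviation 0.52 log2 units) and replicate 1 in 0 of 8 (-0.43). In the GLDT::5'truncatedNAC052 line replicate 3 was above the mean in 8 of 8 (0.27) and replicate 2 in 0 of 8 (-0.23). In the activation-tagged line replicate 1 was above it in 7 of 8 (0.34) and replicate 3 in 1 of 8 (-0.38). The reference and CRISPR/Cas libraries were mixed, with 3 to 5 and 3 to 6 genes above the mean. Within the GLDT::NAC052 line, replicate 1 had the highest *NAC052* level (280 CPM) and the lowest value of all 8 genes. Replicate 3 (*NAC052* at 165 CPM) had the highest of all 8. A relation of these genes to *NAC052* mRNA was not tested. The part of harvest handling in these deviations was not tested.

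**Figure D4:**
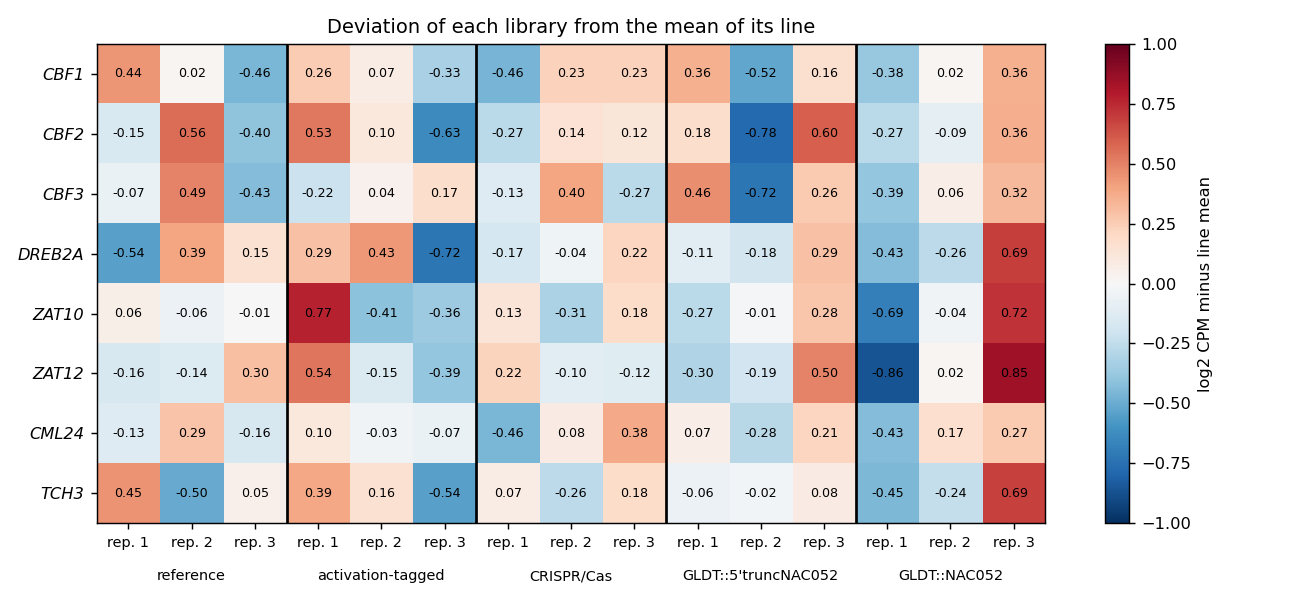
Deviation of every library (columns) from the mean of its line for each early stress gene (rows), in log2 CPM (TMM, prior count of 2), coloured from blue (below) to red (above) and printed in the cell. Replicate 3 of the GLDT::NAC052 line is above its line mean in all 8 genes and replicate 1 below it in all 8.

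As a description over the 15 libraries, which share lines and lanes, the *CBF* genes varied together (Pearson r of log2 CPM 0.908 to 0.927), as did *ZAT10* and *ZAT12* (0.874) and *ZAT12* and *DREB2A* (0.797). The *CBF* genes ran against *CML24* over all libraries (-0.595 to -0.456). Taken as deviations from the line means the same pairs had r of 0.558 to 0.708, so the opposite sign lay between lines and not between libraries of a line. *ZAT10* and *ZAT12* kept 0.886 within lines, and *ZAT12* and *TCH3* had 0.691. The *CBF* genes had lower r with each other within lines (0.585 to 0.727), as did *ZAT12* and *DREB2A* (0.662).

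Known targets of the CBF proteins were taken as a list of 11 genes, some of which respond to abscisic acid and drought as well. Against the reference line 8 of 11 fell and 0 rose in the CRISPR/Cas line (median log2 fold change -1.02, against 0.00 over all genes), and 9 of 11 rose and 0 fell in the GLDT::NAC052 line (median 1.91). In the activation-tagged line 7 of 11 fell and 0 rose (median -1.72), and in the GLDT::5'truncatedNAC052 line 1 rose and 0 fell (median 1.00). Called targets were 72.7%, 81.8%, 63.6% and 9.09% of the list in that order, beside 23.8%, 34.3%, 3.65% and 5.83% of all genes. None of the *CBF* genes was called in the activation-tagged or GLDT::NAC052 line, where 7 and 9 of these targets were.

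*RD29A*, the best known DRE-containing target, was at 89.7, 399 and 194 CPM in the reference line, 32.8, 26.2 and 19.5 CPM in the activation-tagged line and 12.6, 57.2 and 33.9 CPM in the CRISPR/Cas line. It was at 668, 423 and 1033 CPM in the GLDT::5'truncatedNAC052 line and at 1621, 2094 and 1775 CPM in the GLDT::NAC052 line. No library of the other lines overlapped the reference line, and GLDT::NAC052 replicate 2 held the highest value. The log2 fold changes were -3.12 (SE 0.56, edgeR adjusted p = 0.0107), -2.72 (SE 0.55, adjusted p = 0.00374), 1.64 (not called) and 3.01 (SE 0.56, adjusted p = 0.00122) in that order. The galactinol synthase gene *GOLS3* followed with -3.58, -2.67 and 3.24 in the activation-tagged, CRISPR/Cas and GLDT::NAC052 lines, all called, and *KIN1* with -2.75, -2.19 and 2.53. *KIN1* lies beside its close copy *KIN2*, and their reads may have been split between them.

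Other called targets were the dehydrin genes *LTI30* (-2.91 in the activation-tagged line) and *ERD10* (2.63 in the GLDT::NAC052 line), the chloroplast envelope gene *COR413IM1* (-2.00 in the CRISPR/Cas line) and *KIN2* (1.06 in the GLDT::5'truncatedNAC052 line). *COR15A* and *COR15B*, chloroplast proteins of cold-treated leaves, were called in none of these 4 comparisons. *COR15A* missed the threshold narrowly in the activation-tagged line (log2 fold change -2.575, SE 0.67, edgeR adjusted p = 0.0504). It was at 14.2, 34.8 and 30.6 CPM there, below the 66.1, 287 and 121 CPM of the reference line. On lane 8, 9 of 11 were lower in the CRISPR/Cas line than in the GLDT::5'truncatedNAC052 line and 10 of 11 lower than in the GLDT::NAC052 line, and 4 of 11 were higher with the whole than with the truncated coding sequence. These are 81.8%, 90.9% and 36.4% of the list, beside 28.6%, 41.4% and 8.54% of all genes called in the same comparisons. The count in the GLDT::NAC052 line was 9 under each left-out library. That of the activation-tagged line fell to 2 without its replicate 2 and to 3 without its replicate 3, that of the CRISPR/Cas line to 5 without reference replicate 2, and that of the GLDT::5'truncatedNAC052 line went from 1 to 5 without reference replicate 2 and to 0 without reference replicate 1 or 3 or its own replicate 1 or 3. For that last line DESeq2 called 6 targets higher, the replicate block 4, voom and library totals 3 each and a fit of 6 libraries 0, so its count depends on the tool.

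**Figure D5:**
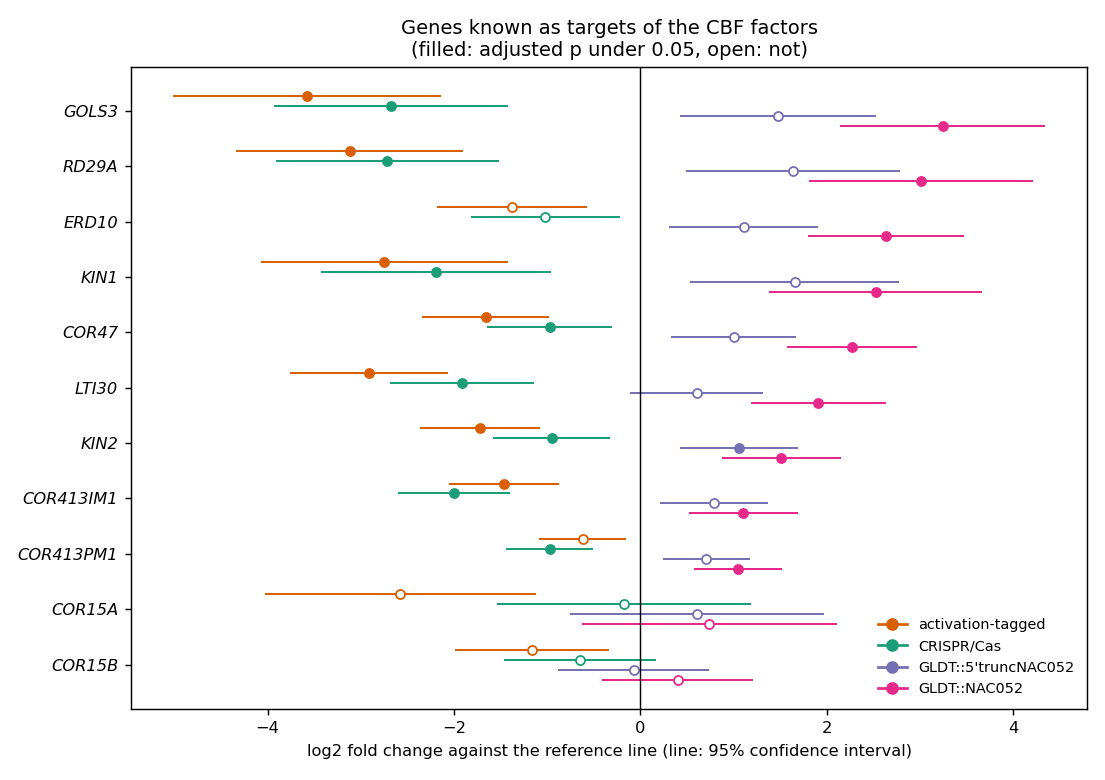
Log2 fold change against the reference line (x axis) of 11 known CBF target genes in 4 lines (colours), with 95% confidence intervals from edgeR; filled points had an adjusted p under 0.05. *RD29A* stood at -3.12 and -2.72 in the activation-tagged and CRISPR/Cas lines and at 3.01 in the GLDT::NAC052 line.

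Of 15 genes known to act on *CBF* transcription, 3 rose and 2 fell in the CRISPR/Cas line, 7 rose and 2 fell in the GLDT::NAC052 line, 2 rose in the GLDT::5'truncatedNAC052 line and 1 rose in the activation-tagged line. That is 33.3% of the list beside 23.8% of all genes in the CRISPR/Cas line and 9 of 15 beside 34.3% in the GLDT::NAC052 line, with median log2 fold changes of 0.03 and 0.24. *MYB15*, a repressor of the *CBF* genes, was at 0.527, 0.965 and 1.298 CPM in the reference line, at 4.55, 3.22 and 3.09 CPM in the CRISPR/Cas line, at 2.44, 2.62 and 8.12 CPM in the GLDT::5'truncatedNAC052 line and at 11.1, 10.06 and 30.2 CPM in the GLDT::NAC052 line. Its log2 fold changes of 1.97 (SE 0.62), 2.25 (SE 0.61) and 4.21 (SE 0.62) were called in all 3 lines (edgeR adjusted p = 0.0328, 0.0464 and 0.000295). In the activation-tagged line *MYB15* was at 0.855, 0.118 and 0.264 CPM and was not called (-1.11, SE 0.77, adjusted p = 0.472). Every library of lane 8 lay above every library of lane 1, so lane and line cannot be told apart here. Within lane 8 *MYB15* was called between the GLDT::NAC052 line and each of the other lines. *PIF3*, a light-signalling factor that represses *CBF* genes, rose by 0.76 and 1.03 in the truncated and whole GLDT lines. The activators *CAMTA3* (0.36) and *CAMTA2* (0.32) rose and *ICE2* fell by 0.41 in the CRISPR/Cas line, all by less than *MYB15*. *CAMTA2* and *ICE2* were also called in the GLDT::NAC052 line, so their calls were not particular to the CRISPR/Cas line. *SOC1*, a flowering gene that represses *CBF* genes, rose by 0.52 in the activation-tagged line.

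The early cold response has further transcription factors, and 10 of their genes were tested. In the CRISPR/Cas line 3 rose (*ERF11* by 2.24, *CZF1* by 0.85 and *RAV1* by 0.61) and *HSFC1* fell by 1.34. In the GLDT::NAC052 line 5 rose and 0 fell, among them *ERF11* (2.44), *MYB44* (1.27), *HSFC1* (1.15) and *DEAR1* (1.12). This was 40.0% and 50.0% of the 10 genes, beside 23.8% and 34.3% of all genes. In the other 2 lines edgeR called 0 of 10, and DESeq2 called 2 lower in the GLDT::5'truncatedNAC052 line.

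Of 8 tested relatives of *ZAT10* and *ZAT12* in the C1-2i family, 3 rose in the CRISPR/Cas line and 1 in the GLDT::NAC052 line. These shares, 37.5% and 12.5%, stand beside 23.8% and 34.3% of all genes, and the count of 3 became 5 with library totals and 2 when any 1 of 5 libraries was left out (reference replicates 2 and 3 and each CRISPR/Cas replicate). *ZAT7* was at 2.38, 1.59 and 0.584 CPM in the reference line and at 20.4, 17.9 and 24.5 CPM in the CRISPR/Cas line, well apart, while the GLDT::NAC052 libraries held 1.01, 1.85 and 3.83 CPM. It rose by 3.76 (SE 0.51, edgeR adjusted p = 0.000334) and its neighbour *ZAT8* by 4.61 (SE 0.80, adjusted p = 0.00143). *ZAT8* was near the floor in the reference line, at 0.222, 0.156 and 0.357 CPM. It was at 7.5, 4.3 and 6.3 CPM in the CRISPR/Cas line. *ZAT7* and *ZAT8* are adjacent, similar genes whose reads may have been split. *AZF1* rose by 1.71. *ZAT6*, in contrast, was at 5.08, 4.61 and 6.03 CPM in the reference line and at 21.4, 26.8 and 51.1 CPM in the GLDT::NAC052 line (2.66, SE 0.36, adjusted p = 0.000154) and at 5.33, 2.63 and 5.20 CPM in the CRISPR/Cas line. *ZAT7* was higher, and *ZAT6* lower, in the CRISPR/Cas line than in the GLDT::NAC052 line in the direct test.

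In the DREB2 branch, with 9 genes tested beside *DREB2A*, *DREB2D* fell by 1.07 in the CRISPR/Cas line and rose by 1.45 in the GLDT::NAC052 line. The heat stress factor gene *HSFA3*, a known DREB2A target, rose by 0.84 in the GLDT::5'truncatedNAC052 line and by 0.79 in the GLDT::NAC052 line, *DREB2C* by 1.44 in the former and *RD29B* by 1.48 in the latter. No other gene of the branch was called in a comparison with the reference line. The 1 of 9 in the CRISPR/Cas line (11.1%) is below the 23.8% of all genes called there, and the 3 of 9 in the GLDT::NAC052 line (33.3%) is close to 34.3%. In the GLDT::5'truncatedNAC052 line 2 of 9 (22.2%) stand beside 5.83% of all genes, and in the activation-tagged line 0 of 9 beside 3.65%.

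Of 11 tested touch and calmodulin-like genes beside the members, 3 rose in the CRISPR/Cas line (*CML8* by 2.03, *WRKY18* by 1.70 and *CML37* by 1.57) and 5 in the GLDT::NAC052 line, where the touch-responsive factor genes *WRKY40* (2.34) and *WRKY18* (2.30) led, followed by *CML37* (1.66) and *CML38* (1.60). The 27.3% of the list called in the CRISPR/Cas line is close to the 23.8% of all genes and is not a result about these genes, and the 45.5% in the GLDT::NAC052 line stands beside 34.3%. None fell in these 4 comparisons and none was called in the activation-tagged or GLDT::5'truncatedNAC052 line. The count of 3 dropped to 1 without reference replicate 3 or CRISPR/Cas replicate 1, and rose to 6 in a fit of those 6 libraries alone.

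Of 9 genes known to react within minutes to wounding or handling, 6 rose and 1 fell in the GLDT::NAC052 line. These were led by the jasmonate-induced repressor genes *JAZ10* (3.15), *JAZ1* (2.62), *JAZ8* (2.58) and *JAZ7* (2.48). *JAZ10* was at 1.25, 1.90 and 10.2 CPM in the reference line and at 21.8, 42.1 and 53.4 CPM in the GLDT::NAC052 line. In the CRISPR/Cas line 1 rose (*BAP1*, 1.56), in the activation-tagged line 1 fell (*JAZ1*, -1.42) and in the GLDT::5'truncatedNAC052 line 0 of 9 were called. As shares of the list these are 77.8% in the GLDT::NAC052 line beside 34.3% of all genes, and 11.1% in the CRISPR/Cas line beside 23.8%. The CRISPR/Cas count was 0 without reference replicate 2 and 2 without reference replicate 3, with library totals or in a fit of 6 libraries. The activation-tagged count was 0 with voom, in a fit of 6 libraries and without any single library but reference replicate 1, and the truncated line had 1 gene higher with DESeq2, voom or the replicate block. The increase in the GLDT::NAC052 line counted 4 to 7 genes when 1 library was left out, 4 of them without its replicate 3. These genes moved with *ZAT10*, *ZAT12* and *DREB2A* in that line, and their part in that result was not tested.

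Clock genes were called in all 4 lines. Of 10 tested, *LHY*, which peaks at dawn, rose by 1.496 in the activation-tagged and by 1.488 in the CRISPR/Cas line, *CCA1* by 1.01 and 0.68, while the evening gene *ELF4* fell by 0.97 and 0.42. The other called clock genes were not shared by the activation-tagged and CRISPR/Cas lines. *RVE8* rose by 1.185 and *LUX* fell by 0.67 in the CRISPR/Cas line. In the activation-tagged line they stood at 0.345 and 0.043, not called. *PRR9* rose by 0.58 in the activation-tagged line and stood at 0.01, not called, in the CRISPR/Cas line. *LHY* was at 1.25, 1.74 and 2.34 CPM in the reference line, at 4.81, 5.31 and 4.87 CPM in the activation-tagged line and at 3.82, 6.39 and 4.68 CPM in the CRISPR/Cas line, with no overlap. In the GLDT lines it stayed between 1.34 and 2.79 CPM. *CCA1* did not share this split, as GLDT::NAC052 plants also had more of it than the reference line (0.74, edgeR adjusted p = 0.0232). The other clock genes called with the whole coding sequence were *PRR9* (0.82) and *RVE8*, both higher. In all, 3 clock genes rose and 2 fell in the activation-tagged line, 3 rose and 3 fell in the CRISPR/Cas line, 3 rose in the GLDT::NAC052 line and 1 (*PRR9*) with the truncated sequence. These 5, 6, 3 and 1 of 10 genes stand beside 3.65%, 23.8%, 34.3% and 5.83% of all genes. A difference of line and a difference in hour of harvest cannot be told apart from these data.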

How the data were processed

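Deposited values were whole-number read counts per gene without normalization. The authors sequenced stranded mRNA libraries as single 150-base reads, demultiplexed them with bcl2fastq, trimmed, mapped and counted them in CLC Genomics Workbench 10.1.1 on TAIR10 and tested them with DESeq2; whether counting used strand is not given in the sources used here. A further 6 columns of no described sample were not used. The 15 columns were fitted together in edgeR 4.0.16 (R 4.3.3) with a term per line, TMM and the filterByExpr filter (10 counts at the median library size in 3 libraries, 15 in all), followed by quasi-likelihood F tests and Benjamini-Hochberg adjustment over 19663 genes. Alternatives were DESeq2 1.42.0 and its size factors, limma 3.58.1 (voom), library totals, other filters, a fold limit of 2, pair fits, a replicate block and leaving out each library. Scripts were tested on simulated counts. Members, 12 gene lists and tests were chosen with earlier results of these data known; list genes named are the called ones with the largest changes, at most 4 per list and comparison, and *COR15A*, *COR15B*, *ZAT6* in the CRISPR/Cas line and *LHY* in the GLDT lines were added after their values were seen. *ELF4* in the CRISPR/Cas line was named beyond those 4. Libraries were described as biological replicates. Positions and sequences are from RefSeq, TAIR10.1, matched by locus tag for all 8 genes.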

Additional observations from a re-analysis of the deposited data

Results flagged for a closer look

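The direct tests between lines of the same lane were the places where 2 lines' changes against the shared reference line differed. The CRISPR/Cas line differed from the GLDT::5'truncatedNAC052 line in *CBF1* (log2 difference -2.80), *CBF2* (-2.11), *CBF3* (-2.84) and *CML24* (0.96). It differed from the GLDT::NAC052 line in the same 4 genes, by -2.63, -2.06, -2.87 and 0.71. The GLDT::NAC052 line differed from the GLDT::5'truncatedNAC052 line in *ZAT10* (1.16), and this difference passed the threshold narrowly (edgeR adjusted p = 0.0457). With 3 libraries a line, no search for single outlying libraries was made.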

How the results depend on the processing

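Of the 8 counts of early stress genes, 4 (those of the 3 comparisons with the CRISPR/Cas line and of any difference) did not change by more than 1.5 times under any alternative run, and the replicate block left every count as it was (against the reference line 0 and 5 for the activation-tagged and CRISPR/Cas lines, 0 for GLDT::5'truncatedNAC052 and 3 for GLDT::NAC052, then 4, 4 and 1 within lane 8, and 7 for any difference). Over all genes, deviations of same-numbered libraries of compared lines had correlations of -0.087 to 0.218, with a single exception. Replicate 3 of GLDT::NAC052 and replicate 3 of GLDT::5'truncatedNAC052 stood at 0.439. Whether replicate numbers mark a pairing of libraries was not tested. At an unadjusted p under 0.05 the count was 1 for the activation-tagged line, 2 for GLDT::5'truncatedNAC052 and 2 between the GLDT lines, where library totals and a fit of 6 libraries both gave 0. Leaving out a library gave 1 to 4 in the GLDT::NAC052 line (1 without its replicate 3) and 0 to 2 between the GLDT lines. *CBF1* was not tested under a minimum of 10 counts in every library.

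Signs turned only for log2 fold changes that were not called. Against the reference line these were, for the GLDT::NAC052 line, *CBF1* (0.10 with library totals, 0.001 with the replicate block, -0.22 to 0.24 leaving out a library), *CML24* (0.10 with library totals, -0.14 to 0.17) and *TCH3* (-0.66 to 0.003). Leaving out a library also turned *DREB2A* in the activation-tagged line (-0.43 to 0.10), *TCH3* in the CRISPR/Cas line (-0.14 to 0.32), and *CBF1* (-0.045 to 0.41) and *ZAT10* (-0.037 to 0.24) in the GLDT::5'truncatedNAC052 line. *ZAT12* between the CRISPR/Cas and GLDT::NAC052 lines was 0.036 with library totals, 0.13 with voom, 0.06 with the replicate block and -0.35 to 0.49 leaving out a library. Between the GLDT lines *CBF2* was 0.026 with voom and -0.35 to 0.28 leaving out a library, as were *CBF1* (-0.40 to 0.017), *CBF3* (-0.25 to 0.27), *DREB2A* (-0.01 to 0.62) and *TCH3* (-0.24 to 0.38). The cause was not tested. Library totals moved the median of all genes by -0.11, 0.19, 0.09 and 0.11 in the 4 comparisons with the reference line, and DESeq2 called 1424 genes in place of 717 for the activation-tagged line and 1908 in place of 1147 for GLDT::5'truncatedNAC052, where a fit of 6 libraries called 165. At 7 to 15 counts, *CBF1* in the CRISPR/Cas line is the value most limited by depth.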

Other observations

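The gene most like each early stress gene over the 15 libraries, by Pearson r of log2 CPM and as a description only, was *XBAT31* for *CBF1* (0.938), *ATHB-17* for both *CBF2* (0.932) and *CBF3* (0.958), AT2G25460 for *ZAT10* (0.959), the lectin receptor kinase gene *LECRK62* for *ZAT12* (0.962), AT1G52565 for *DREB2A* (0.920), the calmodulin-like gene *CML5* for *CML24* (0.889) and *HIR3* for *TCH3* (0.936). Each likeness runs over libraries that share lines and lanes.

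Some leaf markers were called as well. In the GLDT::NAC052 line 4 of 5 fell, *GLDP1* by 0.93 on the log2 scale, *RBCS3B* by 0.72, *RCA* by 0.66 and *RBCS1A* by 0.57. In the CRISPR/Cas line *RBCS3B* fell by 0.71 and in the GLDT::5'truncatedNAC052 line *GLDP1* by 0.69. In the activation-tagged line 0 of 5 were called. These 4, 1, 1 and 0 of 5 stand beside 34.3%, 23.8%, 5.83% and 3.65% of all genes called, in that order. The 1 of 5 in the CRISPR/Cas line is close to the 23.8% of all genes and is not a result about leaf markers. The flower gene *AG* fell by 1.59 in the GLDT::NAC052 line, with at most 1.46 CPM in any library. Their part in the results above was not tested.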
